A study of Mus musculus with 24 samples.

Results

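Imprinted genes are genes whose maternal and paternal copies are used unequally, so that a cell expresses mainly or only the copy inherited from one parent. A list of 43 mouse imprinted genes was followed in the supporting cells of the fetal ovary and testis. The list was compiled by name from well-known imprinted loci and covers 12 clusters of 2 or more listed genes and 7 genes outside them. It was chosen with earlier results of these data known. In the deposited tables of 32040 genes, 42 of the 43 had a row. Nespas was found under its synonym Gnasas1, and Rian was not analysed here. Ascl2 and Rasgrf1 did not pass the filter on low counts, so 40 of the 42 were among the 16190 genes tested.

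The samples are bulk RNA-seq libraries of cells sorted by fluorescence from mouse fetal gonads at 4 stages, named by embryonic day from E11.5 through E12.5 and E13.5 to E15.5. The XX cells, labelled pre-granulosa cells, came from the transgenic line Tg(Enh8-mCherry), and the XY cells, labelled Sertoli cells, from the line SOX9-IRES-GFP, in which GFP is read from the Sox9 transcript. Each of the 8 groups of cell type and stage had 3 libraries, 24 in all, made from polyadenylated RNA of about 40000 sorted cells each. No treatment and no mutation are named in the labels. Chromosomal sex, mouse line and fluorophore change together between the XX and XY groups and cannot be told apart. In 1 library, XX E13.5 replicate 1, the stage field names E12.5 while its title names E13.5, and it was kept at E13.5. The labels do not say whether the replicates came from separate animals or pools, so p-values measure only the spread between these samples, which may be technical.

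Imprinting depends on DNA methylation set in the germ line at short control regions, each of which can govern several neighbouring genes. Imprinted genes include growth factors, growth inhibitors, metabolic regulators and long noncoding RNAs, and many are highly expressed in the embryo and placenta and fall after birth. Supporting cells are the first somatic cells of the gonad to choose a sex: those of the testis switch on Sry and Sox9 and become Sertoli cells, and those of the ovary switch on Foxl2 and become pre-granulosa cells. The counts do not separate the parental copies, so all values below are totals of both. They also cannot tell fewer cells expressing a gene from less RNA of it per cell.

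The libraries held 11275251 to 37256881 counts. The summed level of 8 Sertoli markers was 65.7 to 327 CPM (counts-per-million) in the XX libraries, 1536 to 2754 in XY E11.5 and 8813 to 10070 in the later XY libraries. The summed level of 8 pre-granulosa markers was 511 to 1568 CPM in XX and 6.94 to 159 in XY. The XX E11.5 libraries also held red-cell transcripts (summed erythroid markers 4371 to 31667 CPM, against at most 252 in XY at all stages), and immune markers summed to 36.1 to 345 CPM in XX and to at most 2.19 in XY. Interstitial and steroidogenic markers summed to 871 to 1229 CPM in XY E11.5 and 84.1 to 103 in XY E12.5, and to 489 to 2346 and 219 to 388 in XX at the same stages. XX E11.5 replicate 2 stood apart from its group, with a pre-granulosa marker sum of 1137 CPM against 511 and 622.

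CPM values are taken over library totals scaled by the trimmed mean of M-values (TMM), and are used to compare libraries for 1 gene. The deposited TPM (transcripts-per-million) allow for gene length and are used to compare genes. Differences are log2 fold changes with standard errors (SE) from edgeR's quasi-likelihood test fitted to all 24 libraries, and "called" means an adjusted p under 0.05 (Benjamini-Hochberg, over 16190 genes). Log2 values of single genes are given in the text for differences whose call was kept in each of the 24 fits that left out 1 library and in every other setting tried except a stricter fold rule, and any exception is named beside its value.

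Between XX and XY cells the listed imprinted genes moved from balance to a strong tilt. The youngest stage, E11.5, had 20 of the 40 called, split into 10 with more RNA in XX and 10 with more in XY (all tested genes: 42.0% called, 21.4% up in XX, 20.6% up in XY). Among the 29 called at E12.5, 23 were higher in XX cells (all genes: 62.1% called, 30.5% up in XX). Among the 27 called at E13.5 the XX-high genes numbered 20 (66.1% and 32.8%). The oldest stage, E15.5, had 29 called, 27 with more RNA in XX and 2 with more in XY (69.4% called, 34.9% up in XX, 34.4% up in XY).

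The share called was thus near that of all genes at each stage, while the direction was not evenly split. The median difference over the 40 genes was -0.14, 0.64, 0.56 and 0.98 on the log2 scale at the 4 stages, against 0.02, -0.01, 0.01 and 0.05 over all genes. Of the called genes, 13, 22, 22 and 27 kept their call whichever library was left out. At E15.5, 20 genes were at least 1 log2 unit higher in XX and 2 were as much higher in XY (21.1% and 20.3% of all genes). Igf2r, Grb10 and Plagl1 were called at none of the 4 stages. Because the list was chosen with earlier results of these data known, its tilt may not hold for imprinted genes in general. A further list of imprinted genes or neighbours in the same clusters was less tilted at E15.5. Of its 33 tested genes, 12 were called higher in XX and 8 higher in XY (all genes: 34.9% and 34.4%), with a median difference of 0.20. Summed markers of some other cells were also higher in XX E15.5 than in XY E15.5. Surface epithelium markers summed to 463 to 476 CPM against 8.86 to 13.4, and 3 of the 5 were called, all higher in XX. Interstitial and steroidogenic markers summed to 488 to 587 against 142 to 210. Of these 10, 4 were called higher in XX and 2 higher in XY (all genes: 34.9% and 34.4%). The part of these markers in the differences of the listed genes was not tested. That of the red-cell and immune transcripts of the XX libraries was not tested either.

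**Figure D1:**
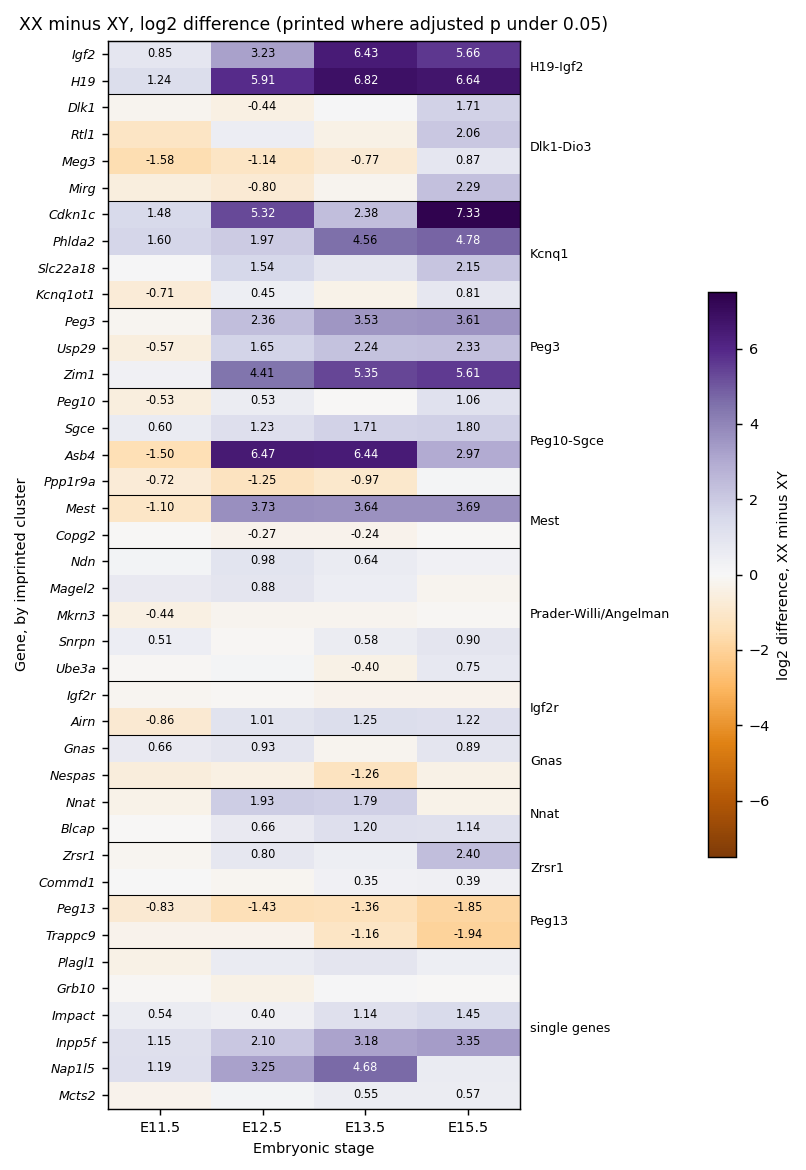
Heat map of the log2 difference between XX and XY cells for the 40 tested imprinted genes (rows, by cluster) at the 4 stages (columns), with the value printed where the adjusted p was under 0.05. Purple (higher in XX) and orange (higher in XY) are mixed at E11.5, where 10 genes were called each way, and at E15.5 only Peg13 and Trappc9 were called lower in XX.

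Between E11.5 and E12.5 most of these genes fell in the XY cells. In that interval 28 of the 40 genes were called in XY, 24 falling and 4 rising (51.9% of all genes were called, 24.8% falling and 27.1% rising), with a median change of -0.82 against 0.03 over all genes. In XX, 17 were called over the same interval, 11 falling and 6 rising (34.0% called, 17.3% falling and 16.7% rising). In the next interval, E12.5 to E13.5, all 13 called in XY fell (16.6% called, 8.62% falling), and from E13.5 to E15.5, 13 fell and 3 rose (21.3% called, 9.79% falling). XX cells had 13 called from E12.5 to E13.5, 7 falling and 6 rising (31.7% called, 17.4% falling and 14.2% rising), and 14 called from E13.5 to E15.5, 9 falling and 5 rising (25.6% called, 12.8% each way). The 13 called in XY from E12.5 to E13.5 depended on single libraries: leaving out replicate 1 or 2 of XY E12.5 left 7 in each case, and leaving out replicate 1 or 3 of XY E13.5 left 8 and 7.

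The summed TPM of the listed genes weighs the most abundant genes most, so it does not give the change of a typical gene. It was 8815 ± 1362 (SD, n = 3) in XX E11.5 and 7203 ± 1435 in XY E11.5. It was 8175 ± 1309, 4355 ± 178 and 5478 ± 166 in XX at the later stages, and 1761 ± 65, 1526 ± 105 and 1148 ± 20.1 in XY. Cdkn1c alone had group means of 3665, 3273 and 555 TPM in XX E11.5, E12.5 and E13.5, and of 1333 and 80.2 in XY E11.5 and E12.5. Mest went from 1256 to 60.6 TPM between XY E11.5 and XY E12.5. The leading genes changed too. Cdkn1c had the highest TPM of the list in 9 of the 12 XX libraries and H19 in the other 3, all at E13.5, whereas in all 6 XY libraries of E13.5 and E15.5 the first places were held by Gnas and Commd1.

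**Figure D2:**
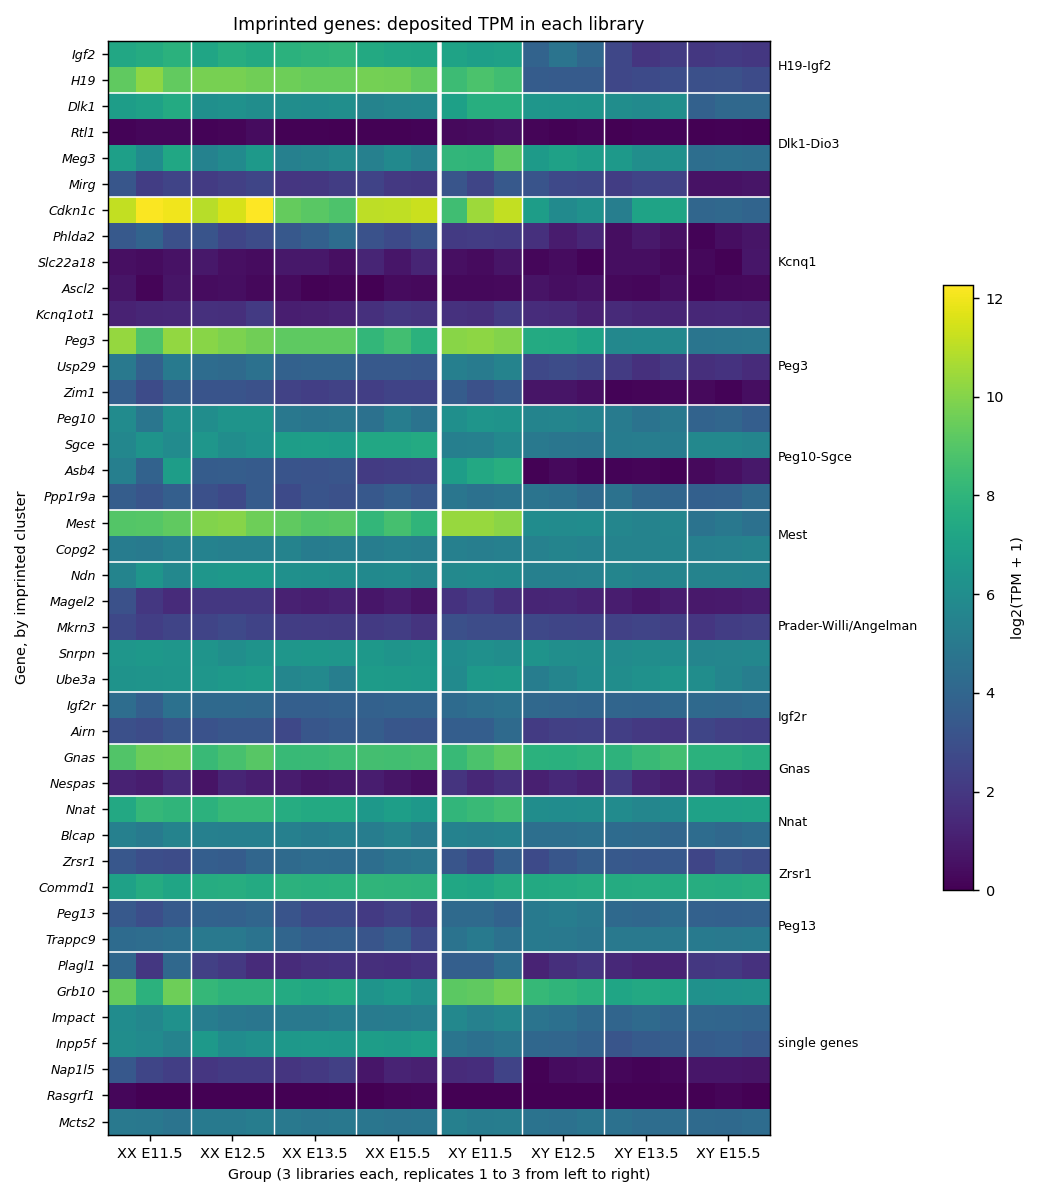
Heat map of log2(TPM + 1) for the 42 imprinted genes with a row (rows, by cluster) in the 24 libraries (columns, 3 per group). Lighter means higher: the rows of H19, Igf2, Cdkn1c, Peg3 and Mest are lighter in the XX and XY E11.5 libraries than in the later XY libraries, and those of Gnas and Commd1 stay green throughout.

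H19 and Igf2 are neighbours on chromosome 7 (chr7:142575530-142666816, mm10) and share enhancers: Igf2, a fetal growth factor, is expressed from the paternal copy, and H19, a long noncoding RNA, from the maternal copy. Each also carries a miRNA hairpin within its gene span. The mature sequences are shown because the host transcripts of these miRNAs, and that of miR-335 in Mest described below, had some of the widest differences between XX and XY cells. Capitals mark the seed, bases 2 to 8, which differs among all of them. Sequences are those of RefSeq for GRCm38.p6, and the miRNAs themselves were not measured.
miR-675-5p (H19): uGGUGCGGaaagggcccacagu
miR-675-3p (H19): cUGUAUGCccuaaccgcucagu
miR-483-5p (Igf2): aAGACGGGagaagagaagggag
miR-483-3p (Igf2): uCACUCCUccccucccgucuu
miR-335-5p (Mest): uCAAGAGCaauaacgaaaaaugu
miR-335-3p (Mest): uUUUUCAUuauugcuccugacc

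H19 stayed high in XX and fell in XY. The XX values were 645, 1329 and 693 CPM at E11.5, then 819, 865 and 744, 807, 734 and 724, and 848, 788 and 674 at the 3 later stages. In XY it was at 348, 441 and 340 CPM at E11.5, then 14.1, 12.9 and 13.2, 5.58, 6.38 and 7.93, and 7.81, 8.25 and 7.09. No XY library reached the lowest XX library at any stage. Between E11.5 and E12.5 H19 changed in XY by -4.81 (SE 0.22, adjusted p = 5.69e-13, edgeR), a 28.0-fold fall in mean CPM. The XX minus XY difference was 1.24 (SE 0.19, adjusted p = 2.35e-05) at E11.5 and 5.91 (SE 0.23, adjusted p = 1.3e-14) at E12.5, where mean CPM was 60.2-fold higher in XX, and 6.64 (SE 0.25, adjusted p = 4.12e-15) at E15.5.

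Igf2 fell in XY in 2 steps. In XX it ranged from 120 to 230 CPM over the 12 libraries. In XY it was at 115, 103 and 105 CPM at E11.5, then 12.2, 18 and 15.2, next 3.26, 1.95 and 2.54, and last 3.04, 2.75 and 2.66. The XY groups of E11.5, E12.5 and E13.5 did not overlap, and E13.5 and E15.5 did. The XY change was -2.83 (SE 0.16, adjusted p = 1.19e-11, edgeR) in the first interval and -2.57 (SE 0.19, adjusted p = 9.76e-09) in the next. At E15.5 Igf2 was 50.9-fold higher in XX by mean CPM (log2 5.66, SE 0.20, adjusted p = 1.23e-15).

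The pair did not fall in step. H19 exceeded Igf2 in TPM by 2.5 to 6.13 times in the XX libraries and by 2.46 to 3.61 times in XY E11.5. The ratio was 0.407 to 0.798 in XY E12.5, where Igf2 was the higher of the pair in all 3 libraries, 1.02 to 2.09 in XY E13.5 and 2.02 to 2.28 in XY E15.5. The ratio in XY E12.5 thus lay under that of every other group.

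**Figure D3:**
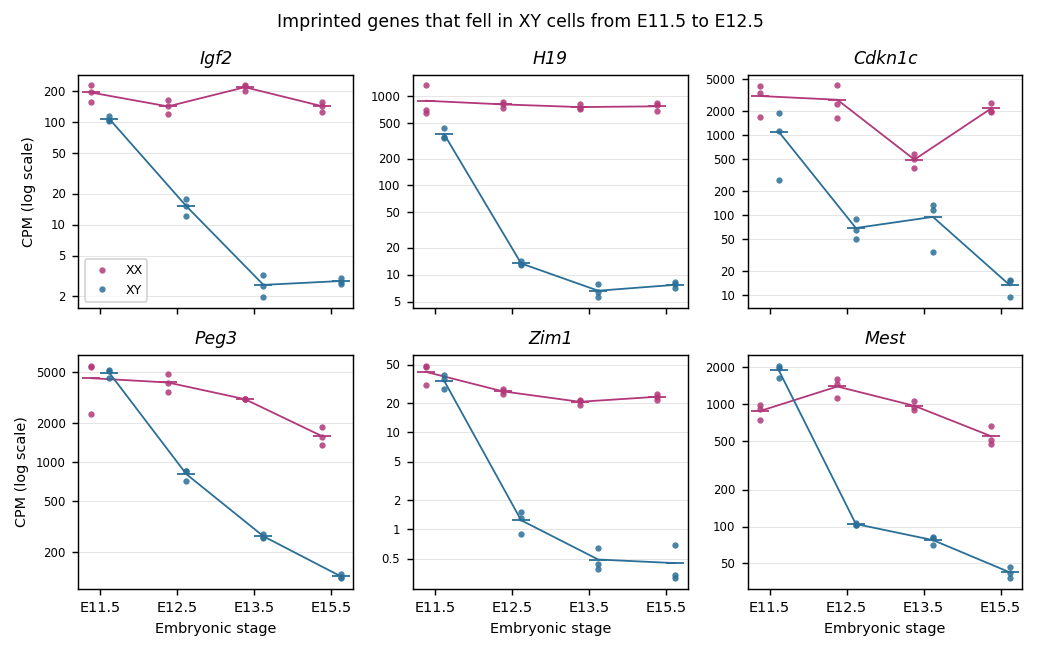
CPM of Igf2, H19, Cdkn1c, Peg3, Zim1 and Mest in each library (points, log axis) by stage, with lines through the group means of XX and XY cells. Between E11.5 and E12.5 the XY lines drop in all 6 panels, and from E12.5 on no XY point reaches an XX point of the same stage.

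Genes that act with IGF2 were followed from a separate list of 18, of which 16 were tested. It holds the related ligand Igf1, receptors and their adaptors, binding proteins and proteases that cut them, and mRNA-binding proteins. At E15.5, 15 of the 16 were called between XX and XY cells, 8 higher in XX and 7 higher in XY (all genes: 69.4% called, 34.9% and 34.4%), with a median difference of 0.11 against 0.05 over all genes. At E11.5, 7 were called (42.0% of all genes), 5 of them higher in XX.

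The naming rule for lists takes called genes of at least 10 CPM with the largest differences at E15.5 and at E11.5. The 4 of E15.5 are given here, and those of E11.5 are not. Igf1 was at 172 ± 25.2 CPM (SD, n = 3) in XX E15.5 and 4.9 ± 0.781 in XY E15.5. Igfbp2 and Igfbp4, secreted proteins that bind IGFs, were at 252 ± 12.1 and 92 ± 3.06 CPM in XX and at 8.06 ± 0.666 and 6.59 ± 0.556 in XY. Irs2, an adaptor of insulin and IGF receptors, went the other way, with an XX minus XY difference of -3.0 (SE 0.34, adjusted p = 8.81e-08, edgeR). The XX and XY libraries of E15.5 did not overlap for any of the 4, which is no separate result because they were picked for their differences at that stage. In XY cells Igf1 was at 60.3 ± 18.1 CPM at E11.5 and 1.58 ± 0.522 at E12.5, a change of -5.25 (SE 0.27, adjusted p = 3.21e-12, edgeR).

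The Kcnq1 cluster (chr7:142966822-143503145) holds the cell cycle inhibitor Cdkn1c and the placental growth regulator Phlda2, both expressed from the maternal copy, and Kcnq1ot1, a long noncoding RNA read from the paternal copy. Cdkn1c reached 2253 ± 191 TPM (SD, n = 3) in XX E15.5, the highest level of the list in that group. In XX it was at 1695, 4165 and 3374 CPM at E11.5, then 1626, 2465 and 4209, next 588, 507 and 391, and last 2022, 1925 and 2551. Its level thus dipped at E13.5, below every other XX library. Both sides of the dip were called, at -2.48 (SE 0.56, adjusted p = 0.00229, edgeR) and 2.13 (SE 0.55, adjusted p = 0.00841).

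In XY, Cdkn1c was at 277, 1114 and 1913 CPM at E11.5, then 90.7, 51 and 66.2, next 34.3, 116 and 136, and last 15.4, 15.2 and 9.43. The first fall was -3.99 (SE 0.60, adjusted p = 1.74e-05, edgeR) and the last -2.83 (SE 0.59, adjusted p = 0.00175), so that XX and XY moved in opposite directions from E13.5 to E15.5. At E15.5 the XX mean was 162-fold the XY mean (log2 7.33, SE 0.71, adjusted p = 2.36e-08). The spread within groups was wide for this gene, most of all in XY E11.5.

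Phlda2 was low in both cell types and lower in XY. It was at 1.91 to 7.55 CPM in all XX libraries, at 1.33 to 1.42 in XY E11.5, 0.388 to 0.887 in XY E12.5, 0.166 to 0.319 in XY E13.5 and 0.0434 to 0.168 in XY E15.5. The XX minus XY difference at E13.5 was fitted at 4.56 (SE 0.39, adjusted p = 1.55e-09, edgeR). It rests on 3, 8 and 6 counts in XY E13.5, close to the floor of 3 counts, so its size is uncertain. At no stage did Phlda2 overlap between the cell types. Kcnq1ot1 differed less, at 157, 186 and 180 CPM in XX E15.5 and 101, 103 and 95.6 in XY E15.5, a difference of 0.81 (SE 0.18, adjusted p = 0.00047). At E11.5 it was lower in XX, by -0.71 (SE 0.18, adjusted p = 0.00326), with XX libraries at 72.7 to 97 CPM and XY at 120 to 178. Its XX level also dipped at E13.5, to 69.7, 75.7 and 88.2 CPM between 122 to 189 at E12.5 and the E15.5 values, by -0.91 (SE 0.18, adjusted p = 0.000702). Slc22a18 was at 1.51 CPM or less in every library, and Ascl2, a trophoblast transcription factor, at 0.588 or less.

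The Peg3 cluster lies at the other end of chromosome 7 (chr7:6674444-6967220). Peg3 encodes a zinc finger protein and Usp29 a ubiquitin protease, both paternally expressed and transcribed away from each other, while the zinc finger gene Zim1 is maternally expressed. The stretch between the spans of Peg3 and Usp29 is shown because both genes start beside it and fell together in XY cells. It is chr7:6730463-6730558 (GRCm38.p6, plus strand, RefSeq), 96 bases long, with its 3 CG dinucleotides in capitals. A CG reads the same on both strands, and at least 3 of them stand in the 96 bases before the start in 50.4% of 32851 RefSeq promoters, so this count is a common one.
Peg3-Usp29 interval: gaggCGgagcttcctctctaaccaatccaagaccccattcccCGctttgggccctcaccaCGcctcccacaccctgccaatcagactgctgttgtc

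Peg3 was at 5604, 2375 and 5475 CPM in XX E11.5, then 4828, 4112 and 3513, next 3073, 3097 and 3074, and last 1559, 1860 and 1361. XY cells began in the same range, at 5120, 5151 and 4520 CPM, and then held 859, 851 and 716, 260, 276 and 265, and 127, 129 and 137. All 3 XY steps were called, at -2.61 (SE 0.21, adjusted p = 2.65e-09, edgeR), -1.60 (SE 0.21, adjusted p = 1.95e-05) and -1.03 (SE 0.21, adjusted p = 0.000977). XX fell by 0.95 (SE 0.20, adjusted p = 0.00181) between E13.5 and E15.5, and at E15.5 was 12.2-fold above XY.

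Usp29 fell with Peg3 in XY, from 71.7, 59.3 and 77.2 CPM at E11.5 to 10.6, 12.9 and 10.6 at E12.5, a change of -2.61 (SE 0.23, adjusted p = 9.09e-09, edgeR). By E15.5 it was at 3.6, 5.11 and 3.54 CPM in XY and 20.3, 20.9 and 20.4 in XX. Zim1, read from the other parental copy, fell further. It was at 38.8, 28.2 and 35.6 CPM in XY E11.5 and 1.31, 0.906 and 1.51 in XY E12.5, a change of -4.78 (SE 0.23, adjusted p = 5.64e-13), while XX libraries of E12.5 to E15.5 stayed at 19.3 to 28.3. From E12.5 on no XY library of these 3 genes reached an XX library.

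Mest, an alpha/beta hydrolase gene expressed from the paternal copy and used as a marker of embryonic growth, crossed over. At E11.5 it was higher in XY, at 2061, 1963 and 1646 CPM against 742, 914 and 984 in XX, a difference of -1.10 (SE 0.14, adjusted p = 2.43e-06, edgeR). At E12.5 it was at 103, 104 and 108 CPM in XY and 1448, 1608 and 1124 in XX, a difference of 3.73 (SE 0.16, adjusted p = 2.08e-14). The groups did not overlap at either stage. The XY fall was -4.17 (SE 0.16, adjusted p = 2.47e-14). By E15.5 XY was at 41.7, 47 and 38.1 CPM and XX at 505, 660 and 473. The neighbouring Copg2 (both at chr6:30733506-30896815), a coat protein gene that overlaps Mest at its end, was at 72.1 to 104 CPM in all 24 libraries.

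The Peg10-Sgce cluster (chr6:4674350-5433022) did not move as 1 unit. Asb4, a maternally expressed adaptor of ubiquitin ligases, was at 215, 304 and 360 CPM in XY E11.5 and at 0.0934, 0.388 and 0.137 in XY E12.5, and did not rise above 1.39 afterwards. That change was fitted at -10.4 (SE 0.73, adjusted p = 4.69e-10, edgeR), the widest of any listed gene in any of the 6 intervals, but it rests on 2, 9 and 3 counts in XY E12.5, close to the floor of 3 counts, so its size is uncertain. XX cells held 68.8, 27.6 and 215 CPM at E11.5 and 18.9 to 19.5 at E12.5, and the XX minus XY difference, resting on the same few XY counts, was fitted at 6.47 (SE 0.74, adjusted p = 2.43e-07) at E12.5. Sgce, a sarcoglycan that starts beside Peg10, rose in XX, where E12.5 libraries held 63.1 to 82.2 CPM, E13.5 libraries 126, 134 and 125, and E15.5 libraries 194, 171 and 208. Both XX steps were called, at 0.81 (SE 0.14, adjusted p = 0.000266) and 0.58 (SE 0.14, adjusted p = 0.00557). XY libraries held 33.4, 31.3 and 28.8 CPM at E12.5 and 56.7, 55.7 and 52.6 at E15.5, below every XX library of the same stage, and the XX and XY steps after E12.5 were not called as different (adjusted p = 0.0932 and 0.797). Peg10, a retrotransposon-derived gene, was at 109, 159 and 118 CPM in XX E15.5 and 63.7, 67.9 and 53.4 in XY E15.5. Ppp1r9a, a scaffold protein of the actin skeleton, was higher in XY at E12.5, at 75.6, 70.4 and 60.9 CPM against 28.2, 23.1 and 35.7 (difference -1.25, SE 0.16, adjusted p = 1.16e-06), and overlapped between the cell types at E15.5.

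The fall of these genes in XY cells came at the stage at which other transcripts left the XY libraries too. Between E11.5 and E12.5, 8 of 10 interstitial and steroidogenic markers were called as falling in XY and 1 as rising. All 5 surface epithelium markers were called as falling (all genes: 24.8% falling, 27.1% rising). The summed surface epithelium level went from 45.5 to 163 CPM to 4.11 to 5.07, with Sprr2d and Msln at 0 in all 3 XY E12.5 libraries. Over the same interval 6 of 8 Sertoli markers were called as rising and 1 as falling (27.1% and 24.8% of all genes). The part of these markers in the fall of the imprinted genes was not tested.

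In the Dlk1-Dio3 cluster (chr12:109452485-109749458) the largest XY falls came after E13.5. Dlk1, a membrane protein related to Notch ligands and a known marker of immature cells, is paternally expressed, and the long noncoding RNAs Meg3 and Mirg are maternally expressed. Dlk1 first fell in both cell types between E11.5 and E12.5, by -1.10 in XX (SE 0.17, adjusted p = 6.56e-05, edgeR) and -0.86 in XY (SE 0.17, adjusted p = 0.000183). It overlapped between the cell types at E13.5, at 64.8, 67.5 and 71.3 CPM in XX and 67.3, 60 and 64.2 in XY. At E15.5 XX held 45.5, 49.7 and 57.6 CPM, all above the XY libraries, of which the highest was at 17. The E15.5 difference was 1.71 (SE 0.18, adjusted p = 2.48e-08, edgeR), and XY fell by 2.03 (SE 0.18, adjusted p = 1.03e-07).

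Meg3 began higher in XY, at 282, 249 and 542 CPM against 133, 67.7 and 158 in XX at E11.5 (difference -1.58, SE 0.31, adjusted p = 0.000437), and fell in XY to 127, 166 and 139 at E12.5 (-1.31, SE 0.31, adjusted p = 0.00146). By E15.5 XY was at 28.4, 29.1 and 29.4 CPM and XX at 49.9, 59.2 and 49.4. The order of the cell types had reversed, with no overlap at either stage, and the last XY step was -1.72 (SE 0.32, adjusted p = 0.000609, edgeR). The E15.5 difference of 0.87 (SE 0.32, adjusted p = 0.0214) was not called without XY E15.5 replicate 1 (0.85, adjusted p = 0.0527).

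Mirg, a host transcript of 10 miRNA hairpins, was low, at 1.74 to 6.58 CPM in all libraries but those of XY E15.5, which were at 0.434, 0.281 and 0.57. The E15.5 difference was 2.29 (SE 0.38, adjusted p = 1.4e-05). Rtl1, a retrotransposon-derived gene, stayed at 1.51 CPM or less.

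**Figure D4:**
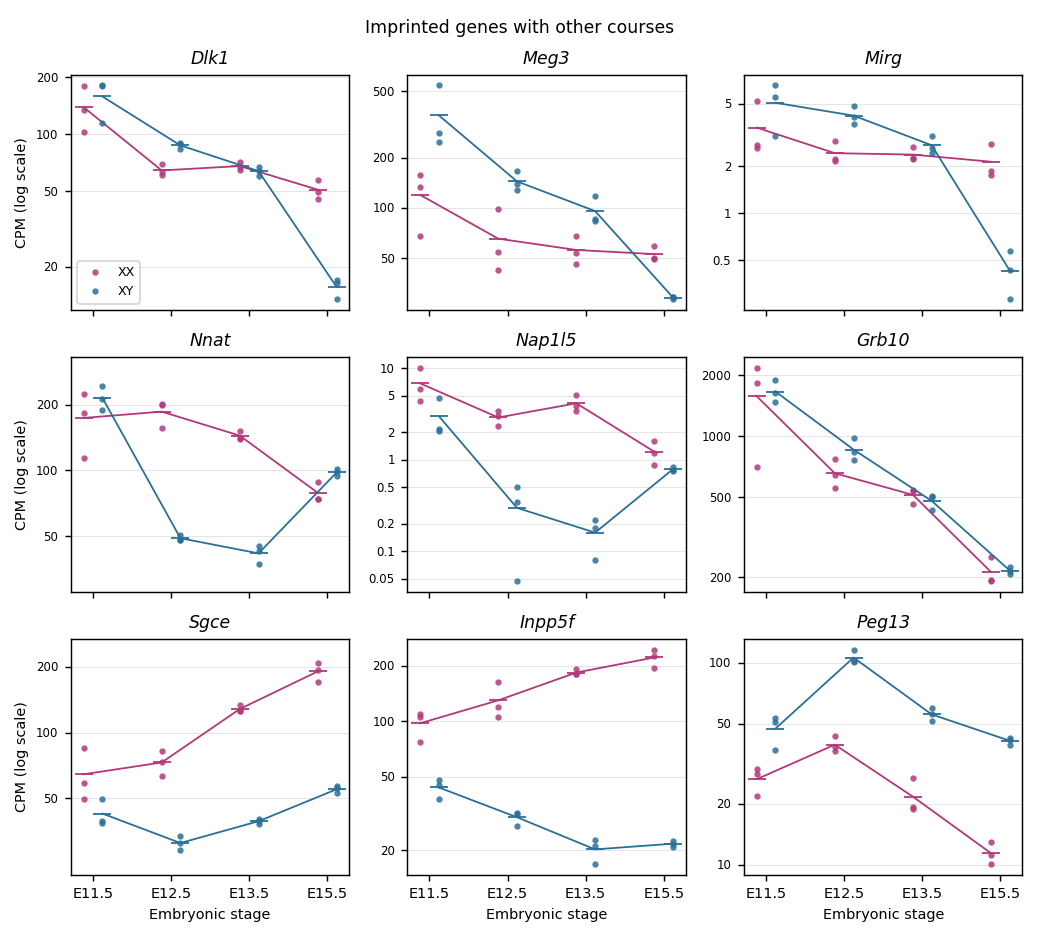
CPM of Dlk1, Meg3, Mirg, Nnat, Nap1l5, Grb10, Sgce, Inpp5f and Peg13 in each library (points, log axis) by stage, with lines through the group means of XX and XY cells. The XY lines of Dlk1, Meg3 and Mirg cross below the XX lines by E15.5, Nnat and Nap1l5 turn up again in XY at E15.5, and Grb10 declines on overlapping lines.

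Nnat, which encodes a small membrane proteolipid of the endoplasmic reticulum, fell and came back in XY. It was at 190, 212 and 245 CPM in XY E11.5, then 48, 48 and 50.6, next 44.8, 37.4 and 42.7, and last 98.1, 94.5 and 101. The XX libraries of E13.5 held 152, 140 and 141 CPM and those of E15.5 held 74.1, 88.6 and 73.8. So XY libraries were all below XX at E13.5 and all above it at E15.5, but the E15.5 difference was not called (adjusted p = 0.0947). The XY fall was -2.14 (SE 0.17, adjusted p = 1.18e-09, edgeR), the XY rise 1.23 (SE 0.17, adjusted p = 1.74e-05) and the XX fall -0.87 (SE 0.16, adjusted p = 0.000607). Blcap, whose span contains Nnat (chr2:157556362-157566361), took another course, with 40.8 to 55 CPM in all XX libraries and 19.8 to 30.2 in XY from E12.5 on, from 46.9 to 49.6 at E11.5.

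Nap1l5, a nucleosome assembly protein-like gene, had a similar shape at a low level. It was at 2.09, 2.19 and 4.73 CPM in XY E11.5, then 0.0467, 0.345 and 0.503, next 0.221, 0.0797 and 0.179, and last 0.781, 0.842 and 0.759, and at 3.41, 3.9 and 5.14 in XX E13.5 and 0.868, 1.6 and 1.2 in XX E15.5. The XX minus XY difference was fitted at 4.68 (SE 0.54, adjusted p = 1.38e-07, edgeR) at E13.5 and was not called at E15.5. The E13.5 value rests on 4, 2 and 5 counts in XY, close to the floor of 3 counts, so its size is uncertain. Germ cell markers also rose in XY between E13.5 and E15.5, with 8 of 10 called as rising (all genes: 1863 of 16190). Their sum went from 15.4 to 18.2 CPM to 54.9 to 86.8. Interstitial and steroidogenic markers rose too, with 7 of 10 called as rising against the same 1863 of 16190. Their sum went from 97.8 to 100 CPM to 142 to 210. The part of the germ cell, interstitial and steroidogenic markers in the rise of Nnat and Nap1l5 was not tested.

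Peg13 and Trappc9 were the listed genes called higher in XY at E15.5. Peg13 is a paternally expressed long noncoding RNA that lies within Trappc9, a gene for a vesicle tethering subunit (chr15:72589620-73061238). Peg13 was at 28, 21.8 and 29.8 CPM in XX E11.5, then 38.2, 36.6 and 43.2, next 27, 18.9 and 19.3, and last 11.2, 12.9 and 10.1. XY held 53.6, 51.1 and 37.1, then 101, 116 and 102, 55.7, 51.6 and 59.5, and 41.7, 39.4 and 42.3. XY was above XX in every stage with no overlap, and the difference was -0.83 at E11.5 (SE 0.15, adjusted p = 0.000127, edgeR) and -1.85 at E15.5 (SE 0.16, adjusted p = 1.33e-09). Peg13 rose in XY between E11.5 and E12.5 by 1.17 (SE 0.15, adjusted p = 1e-06), when 4 listed genes were called as rising and 24 as falling. It also rose in XX, by 0.57, a call lost with only the libraries compared (0.54, adjusted p = 0.0829, edgeR). The XX and XY steps were called as different (-0.60, adjusted p = 0.0265, edgeR). That call was lost in several alternatives, among them limma on log2(TPM + 1) (-0.34, adjusted p = 0.229).

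Trappc9 was at 22.3, 28.3 and 14.2 CPM in XX E15.5 and 84.6, 76.7 and 86.1 in XY, a difference of -1.94 (SE 0.17, adjusted p = 2.7e-09). It fell in XX after E12.5, when its libraries held 57.5 to 70.6 CPM, and stayed at 73.3 to 86.1 in XY from E12.5 on. Whether the counting used strand is not given in the sources used here, so reads of the nested gene Peg13 and of its host cannot be told apart with certainty where they overlap.

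Inpp5f, an inositol phosphatase gene with an imprinted isoform, drew apart up to E13.5. XX held 106, 109 and 77.2 CPM at E11.5 and 226, 195 and 243 at E15.5, and XY 48, 38.1 and 45.2 at E11.5 and 21.7, 22.6 and 20.9 at E15.5. The cell types did not overlap at any stage. The difference was 1.15 (SE 0.15, adjusted p = 2.98e-06, edgeR), 2.10 (SE 0.15, adjusted p = 1.87e-10), 3.18 (SE 0.16, adjusted p = 4.13e-13) and 3.35 (SE 0.16, adjusted p = 2.01e-13) from E11.5 to E15.5. The XX and XY steps were called as different in the first 2 intervals and not in the last (adjusted p = 0.604).

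Grb10, an adaptor that dampens insulin and IGF signalling, declined in both cell types. XX held 1844, 705 and 2186 CPM at E11.5, then 769, 644 and 554, next 543, 461 and 534, and last 194, 253 and 191. XY held 1471, 1631 and 1891, then 976, 839 and 762, 429, 504 and 503, and 216, 226 and 207. XX and XY libraries overlapped at every stage and no stage was called, although E12.5 was called without XX E11.5 replicate 2 and with only the libraries compared. From E13.5 to E15.5 the change was -1.27 in XX (SE 0.25, adjusted p = 0.00113, edgeR) and -1.14 in XY (SE 0.25, adjusted p = 0.00243). Plagl1, a zinc finger growth suppressor, also fell in both between E11.5 and E12.5. XY went from 29.3, 28.1 and 47.8 CPM to 3.32, 4.44 and 5.21 (log2 -3.02, SE 0.42, adjusted p = 4.71e-06), and XX from 29.1, 8.03 and 44 to 8.43, 7.18 and 4.22 (-2.02, SE 0.40, adjusted p = 0.000758). The XX fall was not called with only the libraries compared (-2.05, adjusted p = 0.0678), and the XX and XY falls were not called as different (adjusted p = 0.164).

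The remaining clusters were mixed. Igf2r, the receptor that clears IGF2 and is maternally expressed, was at 72.1 to 130 CPM in all 24 libraries and was called in no comparison of cell types or neighbouring stages. Its overlapping antisense partner Airn (both at chr17:12682406-12859884) was at 6.77, 6.38 and 9.87 CPM in XY E11.5 and 2.38, 2.29 and 2.1 in XY E12.5, a change of -1.76 (SE 0.25, adjusted p = 5.52e-06, edgeR). In the Prader-Willi/Angelman region (chr7:59228750-62420153), Snrpn, a splicing factor gene, was at 127, 100 and 120 CPM in XX E15.5 and 60.3, 60.7 and 65.4 in XY (difference 0.90, SE 0.10, adjusted p = 1.18e-07). Ube3a, a ubiquitin ligase imprinted mainly in neurons, was at 148, 136 and 147 CPM in XX E15.5 and 99.1, 89.5 and 67.1 in XY (difference 0.75, SE 0.13, adjusted p = 2.18e-05). Ndn, a neuronal growth regulator, was at 191, 208 and 207 CPM in XX E12.5 and 101, 101 and 104 in XY E12.5 (difference 0.98, SE 0.16, adjusted p = 2.16e-05), and was also called at E13.5 (0.64, SE 0.16, adjusted p = 0.00164). Magel2 declined in XX from 8.08, 8.37 and 8.22 CPM at E12.5 to 3.85, 3.4 and 4 at E13.5 (-1.14, SE 0.31, adjusted p = 0.00776), and Mkrn3 was at 11.1 CPM or less in every library.

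Gnas, the gene of the stimulatory G protein alpha subunit, was at 344, 295 and 376 CPM in XX E15.5 and 194, 185 and 167 in XY (difference 0.89, SE 0.26, adjusted p = 0.00438, edgeR). Its partner Nespas did not exceed 2.88 CPM. Zrsr1, a splicing factor-related gene inside an intron of the copper metabolism gene Commd1, was at 38.8, 38.5 and 44.7 CPM in XX E15.5 and 5.86, 8.76 and 8.67 in XY (difference 2.40, SE 0.26, adjusted p = 5.77e-08). Commd1 itself was at 90.8, 79.6 and 84.4 CPM in XX E15.5 and 63.8, 61.7 and 68.3 in XY, and was also called higher in XX. Impact, a regulator of translation, reached a difference of 1.45 at E15.5 (SE 0.15, adjusted p = 2.13e-08), with 87.7, 82.2 and 101 CPM in XX and 34.7, 31.7 and 32.8 in XY. Mcts2, a retrogene related to a translation factor, was at 16.8, 13.9 and 16 CPM in XX E15.5 and 10.4, 9.77 and 11.3 in XY (difference 0.57, SE 0.12, adjusted p = 0.000228). For Gnas, Zrsr1, Impact and Mcts2 the XX and XY libraries of E15.5 did not overlap. Rasgrf1 was at 0.374 CPM or less and at 0 counts in all 3 XY E13.5 libraries, where 3 counts would be 0.26 CPM in the least deep of the 24 libraries.

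For 32 of the 40 genes the XX minus XY difference changed with stage in an interaction test (70.1% of all genes). Direct tests of whether a step differed between the cell types were added after these courses were seen. Of 40 genes, 21 steps differed between E11.5 and E12.5 (40.1% of all genes), 14 between E12.5 and E13.5 (25.2%) and 15 between E13.5 and E15.5 (25.8%). In the first interval the XX step was above the XY step in 19 of the 21. The same split over all genes is not given here, so no tilt against all genes is read from it. The XX minus XY difference of the step was 4.67 for H19 (SE 0.28, adjusted p = 1.31e-10, edgeR), 4.83 for Mest (SE 0.21, adjusted p = 4.84e-13), 4.11 for Zim1 (SE 0.28, adjusted p = 6.38e-10), 3.84 for Cdkn1c (SE 0.78, adjusted p = 0.000636), 2.5 for Peg3 (SE 0.29, adjusted p = 8.78e-07) and 2.38 for Igf2 (SE 0.22, adjusted p = 3.04e-08). In the last interval it was 1.62 for Dlk1 (SE 0.24, adjusted p = 6.46e-05), 1.64 for Meg3 (SE 0.45, adjusted p = 0.0106) and 2.49 for Mirg (SE 0.49, adjusted p = 0.00076).

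**Figure D5:**
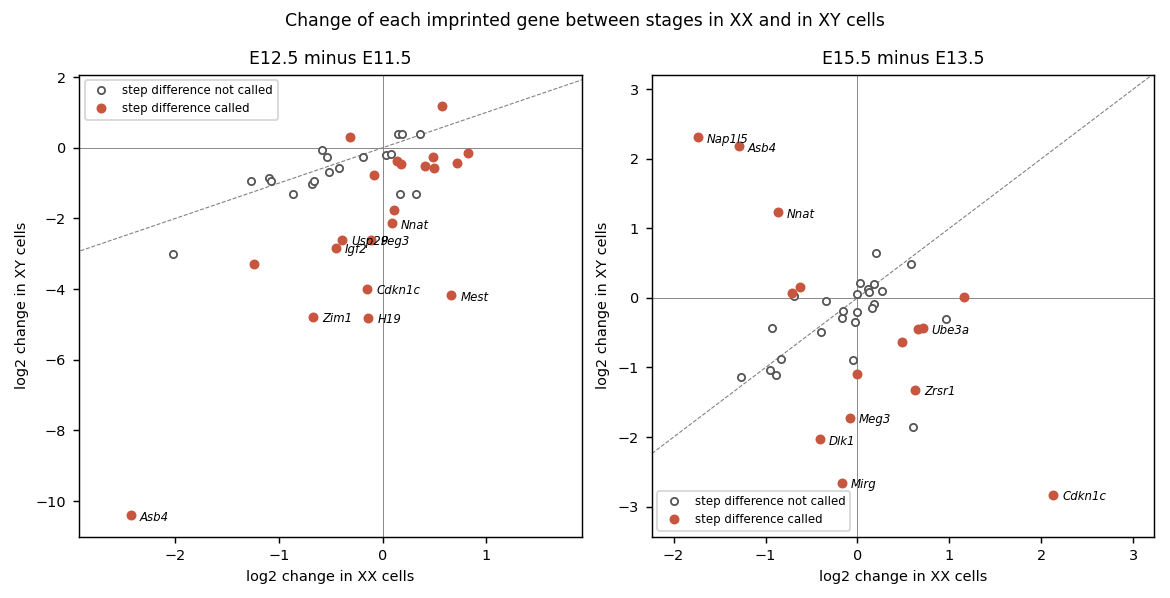
Log2 change of each tested imprinted gene in XX cells (x axis) and in XY cells (y axis), from E11.5 to E12.5 and from E13.5 to E15.5, with filled points where the 2 changes differed (adjusted p under 0.05) and a dashed line where they would be equal. In the first panel 19 of 21 filled points lie below the line, toward a lower XY change, and in the second 10 of 15. The same split over all genes is not given.

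Genes expressed from either parental copy shared the direction. At E15.5, where 69.4% of all genes were called and 34.9% were higher in XX, 15 of 22 tested genes with paternal expression were called, 14 of them higher in XX, with a median difference of 0.98 (0.05 over all genes). Of 10 with maternal expression 8 were called, all higher in XX, with a median of 2.63. Of 8 with isoform- or tissue-dependent imprinting 6 were called, 5 of them higher in XX, with a median of 0.57. In the XY step from E11.5 to E12.5, 14 paternally and 6 maternally expressed genes fell, and 2 paternally expressed ones rose (all genes: 24.8% fell and 27.1% rose). Of the 7 noncoding RNAs tested, 6 were called at E15.5, 5 of them higher in XX.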

How the data were processed

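Deposited values were expected counts and TPM per gene for 24 bulk libraries. Per the submitters' processing notes the genome build was mm10; the aligner, counter and strand setting are not given in the sources used here. The deposited expected counts (17.5% of values not whole) were rounded, and the TPM were used as the authors deposited them, with sums per library of 938740 to 961696. Genes passing filterByExpr (16190 of 32040) were fitted with edgeR 4.0.16 in R 4.3.3 (TMM, robust quasi-likelihood, 1 mean per group, 16 residual degrees of freedom, biological coefficient of variation 17.4%), with Benjamini-Hochberg adjustment over all of them and a threshold of 0.05. SEs came from the unshrunk fold change and its F statistic. The members and lists, and the rule for named list genes (at most 4 per list, at least 10 CPM), were chosen with earlier results of these data known. All 42 listed genes with a row are named, some only with a range or ceiling of CPM, and not every call is given. Alternatives were DESeq2 1.42.0, its size factors, no filter, a replicate block, limma 3.58.1 on log2(TPM + 1) and log2(TPM + 0.1), only the libraries compared, an absolute log2 of at least 1, and each library left out. The test code recovered changes placed in simulated data. Within groups, counts of every pair of replicates differed beyond sampling noise (chi-square per degree of freedom 3.83 to 114). At 3 counts per library the floor is 0.0774 to 0.26 CPM, counting error only. Of the listed genes, 15 overlap another in position. Counts were not whole in at least 1 library for 19 listed genes, so their reads may be shared with other genes. This held in all 24 libraries for 5 (Kcnq1ot1, Snrpn, Ube3a, Nespas and Zrsr1). It held in 23 for Mest, Copg2 and Commd1, in 19 for Meg3 and in 15 for Igf2.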

Additional observations from a re-analysis of the deposited data

Results flagged for a closer look

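For 32 of the 40 imprinted genes the XX minus XY difference changed with stage (interaction of cell type and stage, edgeR, adjusted p under 0.05, against 70.1% of all genes tested). Listed here are those whose steps were called in both cell types and in opposite directions, with the XX step minus the XY step on the log2 scale, each called by a test added after seeing the data.

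Between E11.5 and E12.5, Mest rose in XX and fell in XY (4.83), as did Kcnq1ot1 (1.16) and Inpp5f (0.95), and Snrpn fell in XX and rose in XY (-0.61). Between E12.5 and E13.5, Igf2 (3.19), Phlda2 (2.59) and Inpp5f (1.08) rose in XX and fell in XY. Between E13.5 and E15.5, Cdkn1c (4.96) and Ube3a (1.15) rose in XX and fell in XY, and Nnat (-2.10) and Nap1l5 (-4.05) fell in XX and rose in XY. Apart from Cdkn1c and Nnat, at least 1 of the single steps of each gene lost its call in some alternative, whereas these differences of steps kept theirs in every alternative but the stricter fold rule, which removes those under 1.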

How the results depend on the processing

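Of 206 called differences between cell types or neighbouring stages, 134 kept their call in every alternative other than the stricter fold rule, 72 lost it in at least 1, and none of the 206 changed sign in the alternatives run. Of 194 differences not called, 65 changed sign in at least 1. Of the 50 called differences of steps, 29 kept their call in every alternative other than the stricter fold rule and 0 changed sign.

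Counts of called genes that moved by over 1.5 times were these. With an absolute log2 of at least 1, they were 8 (XX minus XY at E11.5) and 18 (E12.5), 6, 4 and 4 for the 3 XX steps, 15, 5 and 10 for the 3 XY steps, and 13 and 6 for the first and the second differences of steps. With only the libraries compared, which leaves fewer samples for the spread, they were 10 for XX minus XY at E11.5 and 2, 20 and 22 for the XX steps. Without the 6 E11.5 libraries, chosen after seeing the data, 22 were called from E12.5 to E13.5 in XX. With limma the XY step from E12.5 to E13.5 had 6 (log2(TPM + 1)), 8 (log2(TPM + 0.1)) and 6 (no filter), and without a filter the last 2 differences of steps had 9 and 8. The cause was not tested.

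Leaving out each library gave 14 to 21, 25 to 30, 25 to 29 and 27 to 32 for XX minus XY at the 4 stages, 13 to 21, 11 to 19 and 13 to 18 for the XX steps, 24 to 33, 7 to 15 and 12 to 18 for the XY steps, and 18 to 23, 10 to 20 and 12 to 16 for the differences of steps. Any change over stages gave 29 to 32 in XX and 34 to 36 in XY, and the interaction 30 to 34. With all libraries, any change was called for 74.0% of all genes in XX and 70.3% in XY.

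With the replicate number as a block the counts were 19, 29, 27 and 29 (XX minus XY), 18, 14 and 16 (XX steps), 29, 14 and 17 (XY steps), and 32 for the interaction, and 3 single calls were lost. The numbers do not pair the samples: in 0 of 28 pairs of groups did every same-numbered pair correlate above 0.1 (mean r 0.01, range -0.10 to 0.28). At 3 counts the floor of 0.0774 to 0.26 CPM limits Phlda2 and Rtl1 in XY E13.5 and E15.5, Nap1l5 in XY E12.5 and E13.5, Asb4 in XY E12.5 and Slc22a18 in XY E12.5 and E15.5, besides Ascl2 and Rasgrf1, which were not tested, and Rtl1 in XX E13.5 and E15.5.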

Other observations

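Genes that protect or write imprints were followed from a list of 14, all tested. Between XX and XY cells at E15.5, 12 were called, 5 higher in XX and 7 higher in XY (all genes: 69.4% called, 34.9% and 34.4%), with a median difference of -0.31 against 0.05 over all genes. Among called genes of at least 10 CPM in the higher group, the 4 with the largest differences were Dppa3, a factor that shields methylation in the egg and zygote, at 0.864 ± 0.536 CPM (SD, n = 3) in XX and 15.8 ± 4.97 in XY, Dnmt1, the maintenance methyltransferase, at 35.8 ± 5.97 and 242 ± 7.97, Uhrf1, which recruits it, at 26.4 ± 4.1 and 178 ± 7.62, and Arid4a, a chromatin protein, which was higher in XX. Dnmt1 and Uhrf1 were lower in XX by -2.76 (SE 0.17, adjusted p = 5.01e-12, edgeR) and -2.75 (SE 0.15, adjusted p = 8.56e-13). Both also serve DNA replication, and Dppa3 is a germ cell gene. Germ cell markers summed to 140 to 207 CPM in XX E15.5 and 54.9 to 86.8 in XY E15.5, but single markers went both ways. Of the 10 markers, 4 were called higher in XX and 3 higher in XY (all genes: 34.9% and 34.4%). The part of germ cell transcripts in the Dppa3 level was not tested.

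A further list of 41 imprinted genes or neighbours in the same clusters had 33 tested genes. At E15.5, 20 were called, 12 higher in XX and 8 higher in XY (all genes: 69.4% called), with a median of 0.20 against 0.05 over all genes. Among called genes of at least 10 CPM in the higher group, the 4 largest were Kcnq1, a potassium channel gene of the Cdkn1c cluster, at 15.7 ± 4 CPM in XX and 0.127 ± 0.0408 in XY, Dcn, a matrix proteoglycan, at 65.8 ± 14.8 and 11.4 ± 0.895, and Slc38a4, an amino acid transporter, all higher in XX, and Osbpl5, a lipid transfer protein of the Cdkn1c cluster, higher in XY by 2.18 log2 units (written -2.18 for XX minus XY, SE 0.15, adjusted p = 7.18e-11, edgeR).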
